A study of Drosophila melanogaster with 3 samples.

Results

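Peaks of the ecdysone receptor EcR that lay inside introns but close to a transcription start were examined in whole Drosophila melanogaster pupae. A peak belonged to the set when its summit, the base of highest enrichment given with each peak, fell inside the body of a protein-coding gene, in no annotated exon, and more than 500 and at most 2000 bp from the nearest annotated transcript start, with transposable elements left aside. This held for 1480 of 9095 peaks, or 16.3%, and the 1480 summits lay in 1287 regions. The pupae were aged 24 hours, males and females were pooled, and all came from the EcR-GFP line, which stably carries EcR joined at its C-terminus to enhanced GFP. Chromatin was sheared by sonication, immunoprecipitated and sequenced (ChIP-seq). The labels describe the antibody as anti-GFP in one field and give EcR as the antibody in another, so whether untagged receptor was also precipitated cannot be told from them. The 3 biological replicates are separate biosamples of the same line and form the only group, so the comparisons are between classes of sites and not between conditions. The promoter that drives the tagged receptor is not given in the sources used here, and whole animals mix all tissues, so a peak may come from few or many of their cells.

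EcR is a nuclear receptor that binds the steroid hormone ecdysone as a dimer with Ultraspiracle. The dimer recognises a pair of short sites that face each other with a spacer of 1 base, the inverted repeat known as the canonical ecdysone response element. Pulses of ecdysone drive the passage from larva to pupa and adult through a cascade in which early genes encode transcription factors that act on later genes. Introns near a start can hold enhancers and, in genes with several starts, the DNA upstream of an internal promoter.

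The sequences here show the inverted repeat in introns where it accompanied some of the strongest near-start peaks. A match to the repeat, a word of 13 letters searched on both strands with at most 1 mismatch, was present within 100 bp of 82 of the 1480 summits, or 5.54%. Over all 9095 summits the share was 4.84%, and over 45554 windows of 201 bp tiled across near-start intron it was 0.667%. Of the 82, 10 matched without a mismatch and 72 with 1. The sequences are from the dm6 genome, on the forward strand, 5′ to 3′, and each runs 24 bases to either side of the match. Every base shown is intronic, and the capitals mark the match, which has 1 mismatch in each sequence shown.
Eip75B chr3L:17972483-17972543: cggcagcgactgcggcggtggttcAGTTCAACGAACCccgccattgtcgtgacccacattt
not chr3L:18621205-18621265: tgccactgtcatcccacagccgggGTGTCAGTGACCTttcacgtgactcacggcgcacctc
prage chrX:1826644-1826704: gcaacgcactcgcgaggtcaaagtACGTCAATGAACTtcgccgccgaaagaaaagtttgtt
Oatp74D chr3L:17495714-17495774: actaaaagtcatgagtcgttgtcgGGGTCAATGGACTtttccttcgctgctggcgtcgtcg
bmm chr3L:14785531-14785591: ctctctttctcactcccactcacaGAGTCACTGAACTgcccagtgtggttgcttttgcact
Blimp-1 chr3L:5634283-5634343: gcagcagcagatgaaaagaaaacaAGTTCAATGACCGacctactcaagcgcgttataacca
DCP2 chr3L:15824728-15824788: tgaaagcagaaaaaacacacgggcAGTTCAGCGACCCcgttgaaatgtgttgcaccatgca
Mob2 chr3L:11560946-11561006: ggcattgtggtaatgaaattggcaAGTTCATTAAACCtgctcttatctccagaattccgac

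These 8 introns belong to genes of varied function. Eip75B encodes a nuclear receptor that is itself an early ecdysone target, and Blimp-1 a transcriptional repressor that helps time the prepupal response. Oatp74D encodes the importer that takes ecdysone into cells; the nearest start to its peak was that of edin. The remaining genes include not, a ubiquitin protease of the SAGA coactivator complex, bmm, a triglyceride lipase of the fat body, and DCP2, the mRNA decapping enzyme. The centre of the match lay between 7 bp from the summit (DCP2) and 56 bp (prage). All 8 peaks ranked among the strongest 9095 in each of the 3 replicates, from which the set of 9095 peaks was itself made.

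A second set of sequences shows what else stood at strong summits. The peaks in COX7AL2 and lama had the highest signal of the set, and neither held the inverted repeat within 100 bp. Their lines are centred on the summit. The lama line contains the core receptor site AGGTCA, which is not marked in it. The peaks in Eip75B, Blimp-1 and Rbp9 were among the strongest that held a GAGA repeat, the word GAGAGAG on either strand, which is bound by the GAGA factor Trl. The capitals mark the match nearest to the summit. All lines are 61 bases of intron from the forward strand of dm6.
COX7AL2 chr2L:2197120-2197180: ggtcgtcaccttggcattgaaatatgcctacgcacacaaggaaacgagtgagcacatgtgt
CG46456 and lama chr3L:5352879-5352939: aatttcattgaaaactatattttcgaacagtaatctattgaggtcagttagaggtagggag
Eip75B chr3L:17972546-17972606: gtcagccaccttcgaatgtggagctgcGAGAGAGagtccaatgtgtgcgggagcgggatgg
Blimp-1 chr3L:5634361-5634421: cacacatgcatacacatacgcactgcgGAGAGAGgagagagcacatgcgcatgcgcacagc
Rbp9 chr2L:2955931-2955991: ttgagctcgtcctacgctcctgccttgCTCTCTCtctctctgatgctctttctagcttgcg

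The GAGA repeat was found within 100 bp of 176 of the 1480 summits, or 11.9%, against 10.6% of all 9095 summits and 3.38% of tiled windows. The peaks in Eip75B and Blimp-1 held both the inverted repeat and the GAGA repeat, as did 11 members in all. Neither motif was within 100 bp of 1233 members.

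Peak signal, the authors' value for each peak, ranged from 358 to 15185 among the members with a median of 644, and the middle 50% lay between 467 and 1031. Signal serves here to order the peaks of a list. The median region was 610 bp wide, and the 25th and 75th percentiles were 405 and 958 bp. Of the members, 10 were among the 100 strongest peaks of the series and 70 among the 500 strongest. Their share over all 9095 peaks was 16.3%, so they were fewer at the top than that share would give. At the limits of the rule, the 63 intronic summits just inside the promoter limit had a median signal of 566 and the 57 just outside it 634. The 39 summits just inside the outer limit had a median of 629 and the 32 just outside it 707.

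Each replicate has its own deposited list of 30000 peaks, of which the 9095 strongest were used so that lists of equal length were compared. The lists share a control and a genome. Applying the same rule to them gave 1425 near-start intronic summits in replicate 1, 1456 in replicate 2 and 1482 in replicate 3, or 16.0% ± 0.314 of peaks (SD, n = 3). The count of members is therefore close to that found in each replicate alone. A strong summit of the replicate lay within 100 bp of 83.6% of members in replicate 1, 85.2% in replicate 2 and 88.2% in replicate 3. All 3 replicates had such a summit for 1011 members, or 68.3%, against 66.2% of all optimal peaks, so recurrence in the set was close to that of the series. Another 316 members recurred in 2 replicates, 139 in 1 and 14 in none. In the whole lists of 30000 peaks, 1369 members had a summit in every replicate. The authors made the optimal list from these same replicates, so recurrence in them is no independent support.

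A regular spacing of summits within regions bears on these counts. Of the members, 33.5% lay in regions with more than 1 summit, and 265 were weaker summits of a region that held a stronger one. Of these, 179 lay 150 to 250 bp from the strongest summit on the side of the higher coordinate and 2 on the side of the lower coordinate. Their median offset was 203 bp. Over all 9095 peaks the counts on the 2 sides were 1063 and 4, the same one-sided pattern. The inverted repeat was within 100 bp of 4 of the 179 and of 78 of the other 1301 members. The GAGA repeat was at 11.7% and 11.9%. With only the strongest summit of each region, 1215 members were left, and the ratios of density given next were 1.53 and 3.79. Whether the weaker summits mark separate sites was not tested.

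Intronic summits were denser near a start than farther away. In intron more than 500 and at most 2000 bp from a start there were 127, 130 and 133 summits per Mb in replicates 1, 2 and 3. From there to 10000 bp there were 85.5, 84.9 and 88.6, and beyond 10000 bp 33.8, 33.4 and 35.6. The 3 classes did not overlap in any replicate. The near class exceeded the middle class by 43.7 ± 1.73 summits per Mb and the far class by 95.8 ± 1.88 (SD, n = 3), which are ratios of 1.51 ± 0.0243 and 3.79 ± 0.0916. Both differences had the same sign in 3 of 3 replicates, with p = 0.25 in the exact two-sided paired permutation test, the smallest p that 3 replicates allow. No comparison over these replicates can pass a threshold of 0.05, and differences are therefore read against the SD between replicates. The replicates share a control and, for the members, most of their summits. The SD thus shows how repeatable the calls were and not the uncertainty over sites.

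Within the near class the density did not fall evenly. The mean was 139 ± 4.98 summits per Mb from 500 to 750 bp and 154 ± 11.6 from 750 to 1000 bp. It was 125 ± 1.83 from 1000 to 1250 bp, where the replicates (125, 127 and 123) lay below all 3 of the bin before (143, 152 and 166). The next bins stayed level at 121 ± 1.72 and 123 ± 2.45, and from 1750 to 2000 bp the mean was 109 ± 1.36. The decline continued to 104 ± 4.09 from 2000 to 3000 bp and 23.5 ± 0.42 from 20000 to 50000 bp. Across the outer limit of the rule the means were thus 109 and 104.

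**Figure D1:**
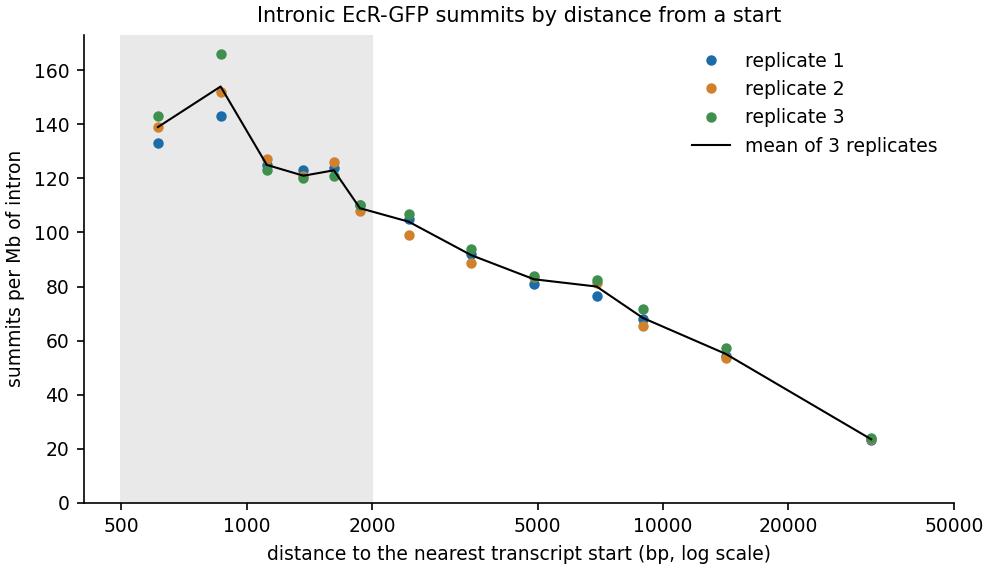
Density of intronic summits (vertical axis, summits per Mb of intron) against distance to the nearest transcript start (horizontal axis, bp, log scale). Dots are the 3 replicates and the line their mean; the shaded band is the near class. The mean fell from 154 per Mb between 750 and 1000 bp to 23.5 beyond 20000 bp.

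The members lay on both sides of starts. The count was 972 downstream and 508 upstream, and 65.7% downstream is close to the 64.6% of near-start intron that lies downstream. Density was 133 ± 1.60 summits per Mb downstream and 125 ± 4.33 upstream. The difference of 7.28 ± 2.79 had the same sign in 3 of 3 replicates (exact p = 0.25). The highest bins differed between the sides. Downstream it was 750 to 1000 bp, with 153, 163 and 180 summits per Mb in the 3 replicates. Upstream it was 500 to 750 bp, with 139, 152 and 163. The bins 750 to 1000 bp downstream and 500 to 750 bp downstream (129, 131 and 131) did not overlap.

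**Figure D2:**
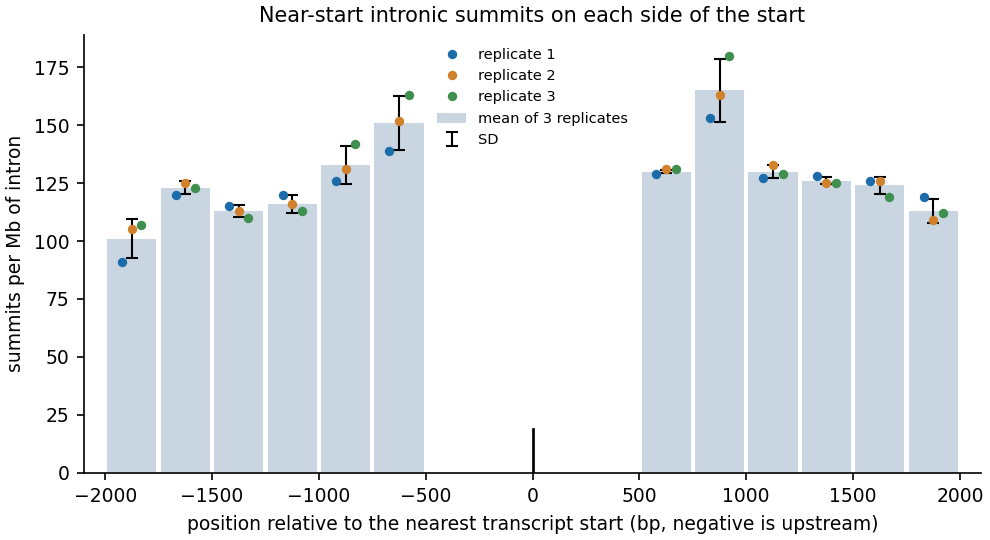
Density of near-start intronic summits (vertical axis, summits per Mb of intron) by position relative to the nearest start (horizontal axis, bp). Bars are means, error bars the SD and dots the 3 replicates. The highest mean was 165 per Mb, 750 to 1000 bp downstream.

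Most members stood in relation to a start of the gene that contained them. Of the 1480, 877 (59.3%) lay downstream of a start of their host gene and 322 (21.8%) upstream of one, that is, ahead of an internal start of a gene with several. Another 95 (6.42%) lay downstream and 186 (12.6%) upstream of a start of a different gene. The nearest start belonged to a protein-coding gene for 1342 members, to a noncoding RNA gene for 103, to a tRNA gene for 24, to a snoRNA gene for 8 and to a pseudogene for 3. Several members shared a start: 1194 distinct starts were involved, 252 of them had 2 or more members and 30 had 3 or more, with at most 4. A single host gene contained 1373 members and several overlapping genes contained 107. Annotated transposable elements held 2.

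Members were in the first intron of a transcript more often than near-start intron as a whole. The count was 1150 of 1480, or 77.7%, while 64.0% of near-start intronic bases were in such an intron. The replicates gave 77.5%, 77.5% and 78.1%. The length of the exon-free stretch around the summit was not unlike the space, with a median of 2820 bp at members and 2738 bp over the space. Base composition differed: the median GC content within 100 bp was 45.8% at members and 39.3% in tiled windows. Intronic summits more than 2000 bp from a start had a similar GC content, 46.6% ± 0.287 over replicates against 45.8% ± 0.498 for near-start summits, a difference of -0.829 ± 0.287 percentage points (exact p = 0.25, 3 of 3 replicates).

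Many of the starts also carried a summit of their own. A second optimal summit lay within 500 bp of the nearest start for 642 members, or 43.4%, whereas 17.4% of all 23581 annotated starts had an optimal summit that close. Counted once per start, it was 507 of 1194, or 42.5%. The member was stronger than every summit at its start in 301 of the 642 cases, or 46.9%. A member's region reached over the start in 149 cases. Where the region did not, 549 members still had a companion summit and 254 of them, or 46.3%, were the stronger. Compared with intronic summits 2000 to 10000 bp away, the near-start summits had a companion less often, 42.9% ± 2.72 against 48.4% ± 2.70, a difference of -5.44 ± 0.692 percentage points (exact p = 0.25, 3 of 3 replicates). That difference was -1.96 ± 1.06 with the strongest 50% of peaks, and it turned to 0.849 when only summits over 1000 bp from a start were counted as near.

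Near-start summits did not differ in median strength from other intronic summits beyond the replicate spread. Their median percentile by signal within the strongest 9095 was 53.1, 52.1 and 52.5, and that of intronic summits more than 2000 bp away was 54.0, 52.7 and 52.0. The difference was -0.343 ± 0.742 (exact p = 0.5), and its sign turned under 3 of the alternatives tried. The near-start share of peaks fell slowly with rank, from 17.1% ± 0.152 of the strongest 25% to 14.1% ± 0.677 of the weakest 25% in the replicates, and to 13.5% ± 0.126 of ranks 9096 to 30000. The very top of the optimal list did not follow this trend. The 1480 members gave 10 of its 100 strongest peaks and 70 of its 500 strongest. The 2030 middle intronic summits gave 34 and 127, and the 563 far ones 8 and 42.

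The 15 strongest members each ranked among the strongest peaks of all 3 replicates, from which the optimal list was itself made. COX7AL2, named for a cytochrome c oxidase subunit, held the peak of rank 5, 762 bp downstream of its start, with a signal of 15185. Its ranks in replicates 1, 2 and 3 were 5, 5 and 4. The peak at lama ranked 7 and lay 1430 bp upstream of a start, with ranks of 9, 12 and 6. These 2 peaks stood at ranks 12 or better in every replicate.

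An ecdysone target and other genes followed. The strongest peak in Eip75B ranked 18, lay 1112 bp upstream of an internal start and had ranks of 23, 17 and 17. A peak in Svil, which encodes the actin-binding protein supervillin, ranked 37 and lay 1123 bp upstream of the start of Cyp4d20, a cytochrome P450 gene nested in it. The peak in not ranked 39, 858 bp downstream of the start. One in EcR itself, at chr2R:6138545-6139422, ranked 91 and was nearest to the nested gene CG14589.

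Of the rest, CG11357 ranked 59, msi, which encodes the RNA-binding protein Musashi, 70, Ypel 74, and NAT1, a translation factor related to eIF4G, 81. The peak of rank 108 lay in the overlapping genes ctrip and Hus1-like. Arp2, a subunit of the complex that branches actin filaments, had the peak of rank 115, spri that of rank 122, Tlk, a kinase gene, that of rank 124 and prage that of rank 128. Among the 15, 3 held the inverted repeat (Eip75B, not and prage) and 2 the GAGA repeat (Eip75B and NAT1). The regions of the peaks in COX7AL2, Eip75B, not, msi, Ypel, NAT1, spri and prage reached over the nearest start. Those of the others did not. Over all members the share whose region did so was 10.1%.

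**Figure D3:**
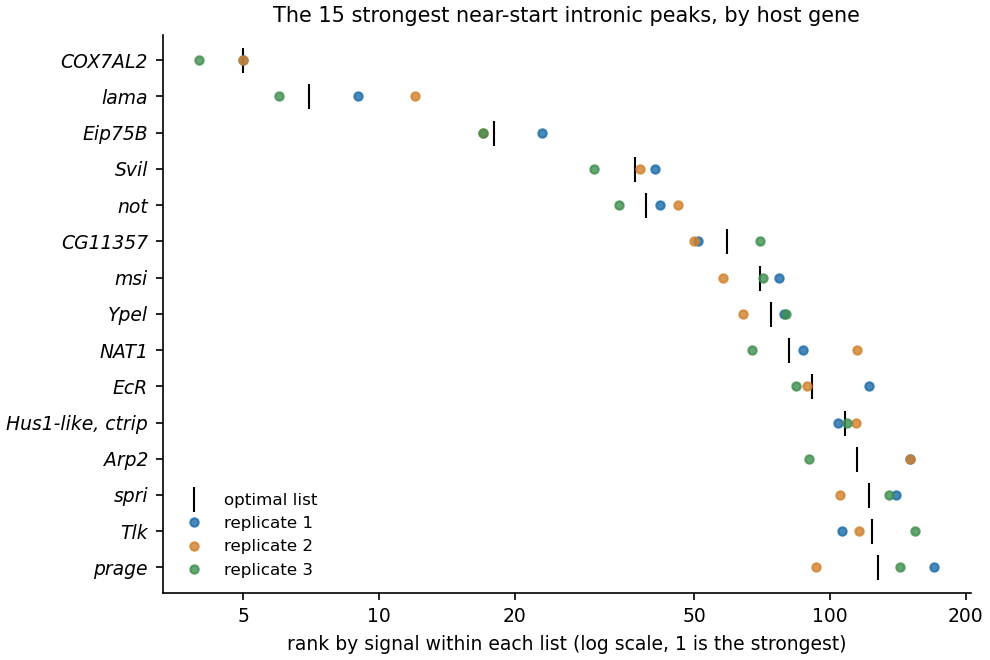
Rank by signal (horizontal axis, log scale, 1 is the strongest) of the 15 strongest near-start intronic peaks, labelled by host gene or, for overlapping genes, hosts. Black ticks give the rank in the optimal list and dots the rank in each replicate. The COX7AL2 and lama peaks ranked 12 or better in all 3 replicates.

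Matches of the inverted repeat gathered under the summits. Per 20 bp bin there were 11.5 matches per 1000 near-start summits just before the summit and 10.1 just after it. There were none between 81 and 120 bp before it, but 2.03 and 1.35 in the bins from 80 to 119 bp after it. The bin from 181 to 200 bp before it had 4.05. In the replicates the repeat was within 100 bp of 5.12%, 5.15% and 5.74% of near-start summits. It was within 100 bp of 2.34%, 2.32% and 3.14% of promoter summits, those within 500 bp of a start, and the 2 ranges did not overlap. Near-start intronic summits thus exceeded promoter summits by 2.74 ± 0.121 percentage points (exact p = 0.25, 3 of 3 replicates, 0.333 after Benjamini-Hochberg adjustment over 28 motif comparisons). Intronic summits more than 2000 bp away held it somewhat more often, at 6.08% ± 0.622, a difference of -0.742 ± 0.279 (exact p = 0.25) that turned to 0.203 when no mismatch was allowed. Tiled windows held it at 0.667% near a start and 0.562% farther away. Relative to these, with at most 1 mismatch, the shares were 8 times at near-start and 10.8 times at other intronic summits.

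**Figure D4:**
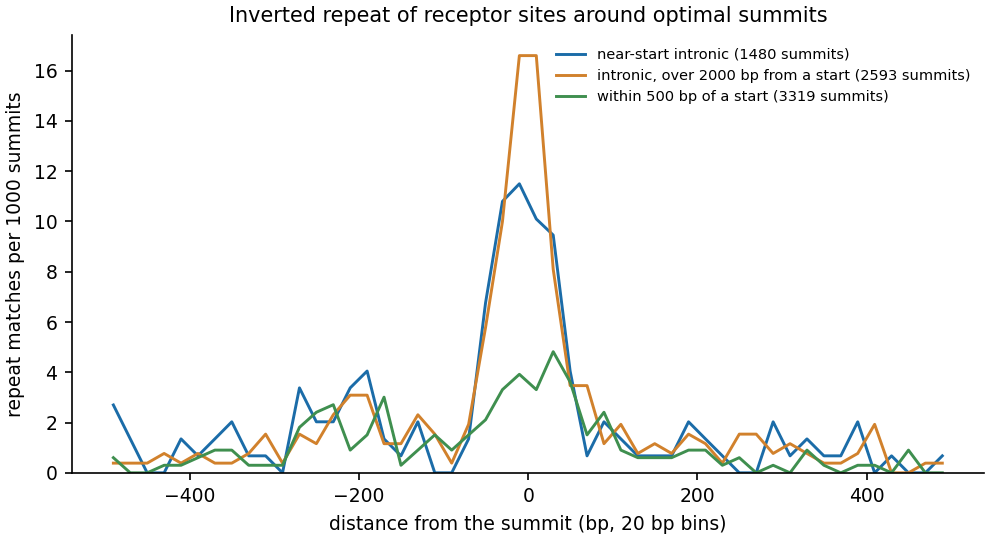
Matches to the inverted repeat per 1000 optimal summits (vertical axis) by distance from the summit (horizontal axis, 20 bp bins, forward strand of the genome) for 3 classes of summit. The near-start curve reached 11.5 at the summit.

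The repeat was more common at strong members. It was found at 36 of the 370 strongest members, or 9.73%, and at 13 of the 370 weakest, or 3.51%. In the replicates the strongest 25% of near-start summits held it at 9.55%, 8.79% and 10.5% and the weakest 25% at 2.81%, 3.85% and 3.78%. The difference was 6.15 ± 1.04 percentage points (exact p = 0.25, 3 of 3 replicates). For the GAGA repeat the same difference was smaller, 3.76 ± 1.55 points. Among the members it was at 50 of the 370 strongest, or 13.5%, and at 44 of the 370 weakest, or 11.9%. The 82 members with the inverted repeat had a median rank of 2670 and the others 4440. A strong summit in all 3 replicates was present for 67 of the 82, or 81.7%, against 66.2% of all peaks.

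Other motifs also differed in share between the classes. The GAGA repeat was within 100 bp of 11.4%, 12.1% and 11.9% of near-start summits in the replicates, and of 8.84%, 9.43% and 8.24% of intronic summits farther away. The difference was 2.94 ± 0.603 percentage points, and promoter summits were at 12.7% ± 0.406. In a 50 bp window the difference from other intronic summits was 1.68 ± 0.247, and with the strongest 50% of peaks 1.9 ± 0.72. Relative to tiled windows of their own class, which held the repeat at 3.38% near a start and 2.66% farther away, the shares were 3.49 and 3.32 times. The words most enriched over tiled windows, among 3767 words of 7 letters seen in at least 30 members, were rich in G and A on one strand. CCCTCTC was at 3.75 times its tiled share and CGCTCTC at 3.68 times. These words were ranked on the members themselves and overlap GAGAGAG in sequence, so they give no separate support. CCCTCTC was at 7.64% of members and 6.94% of other intronic summits, and CGCTCTC at 8.72% and 5.82%.

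Sites for AP-1, the Fos and Jun dimer (TGANTCA), were within 100 bp of 106 members, or 7.16%, against 5.31% of all summits and 5.58% of tiled windows. Over replicates the share was 7.13% ± 0.216, against 5.62% ± 0.180 at other intronic summits and 4.37% ± 0.152 at promoters. Sites for GATA factors (TGATAAG) were also at 106 members, against 5.24% of all summits. Their share was 6.76% ± 0.348 over replicates, 4.91% ± 0.606 at other intronic summits and 5.09% ± 0.0502 at promoters. Near-start summits were above both other classes for these motifs in 3 of 3 replicates. Near-start intron is itself richer in these words than intron farther away, with 5.58% against 4.15% of tiled windows for AP-1 and 4.31% against 2.63% for GATA. Relative to tiled windows of their own class, the near-start share was 1.28 times for AP-1 and 1.57 times for GATA, and the other intronic share 1.35 and 1.87 times, so the order turned. In a window of 50 bp the differences between the classes were 0.338 ± 0.321 percentage points for AP-1 and 0.804 ± 0.487 for GATA.

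Sites for factors of the ecdysone and epidermal programmes were rarer. The site of Ftz-f1, a nuclear receptor that gives prepupal tissue its competence (CAAGGTCA), was at 23 members, or 1.55%, against 1.06% of all summits and 0.577% of tiled windows. Over replicates it was at 1.58% ± 0.211 of near-start summits, 0.877% ± 0.143 of other intronic ones and 0.690% ± 0.0457 of promoter ones. The site of Grainyhead, a regulator of epidermal and cuticle genes (AACCGGTT), was at 25 members, or 1.69%, against 1.22% of all summits and 0.393% of tiled windows. Its share at other intronic summits was 1.42% ± 0.0852 and at near-start ones 1.86% ± 0.335. For Grainyhead the difference of 0.445 ± 0.290 is of the order of the replicate spread. Relative to tiled windows of their own class, the Ftz-f1 site was 2.74 times as common at near-start and 2.18 times at other intronic summits, and the Grainyhead site 4.73 and 7.48 times.

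The core receptor site AGGTCA, which is part of the Ftz-f1 site and can be part of the inverted repeat, was at 131 members, or 8.85%, against 7.77% of all summits and 5.21% of tiled windows. Near-start and other intronic summits did not differ in it beyond the replicate spread, at 0.558 ± 0.581 percentage points (exact p = 0.5). The CA repeat (CACACACA) was at 164 members, or 11.1%, against 9.87% of all summits. The DNA replication-related element DRE (TATCGATA), a promoter motif, was at 9 members, or 0.608%, against 0.935% of all summits. It was at 0.434% ± 0.0964 of near-start summits and 2.01% ± 0.362 of promoter summits over replicates.

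The remaining motifs stayed near their tiled shares. The everted repeat, in which the same sites face away from each other, was at 6 members, or 0.405%, against 0.473% of all summits and 0.338% of tiled windows. The site of Hr3 and Eip75B (TAGGTCA, which contains the core receptor site) was at 15 members, or 1.01%, against 1.12% of all summits. The early activator Zelda (CAGGTAG) was also at 15, against 1.10% of all summits. The E-box (CACGTG) was at 41, or 2.77%, against 2.62%, and the ETS site (ACCGGAAG) at 3, or 0.203%, against 0.253%. All motifs were searched on both strands. Since members had more G and C than tiled windows, the shares were also set side by side among windows of 40 to 50% GC, which held 754 members and 16831 tiled windows. There the inverted repeat was 7.74 times, the Grainyhead site 3.98 times, the GAGA repeat 2.8 times and the everted repeat 1.31 times as common at members as in tiled windows, against 8.3, 4.3, 3.52 and 1.2 times over all windows.

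**Figure D5:**
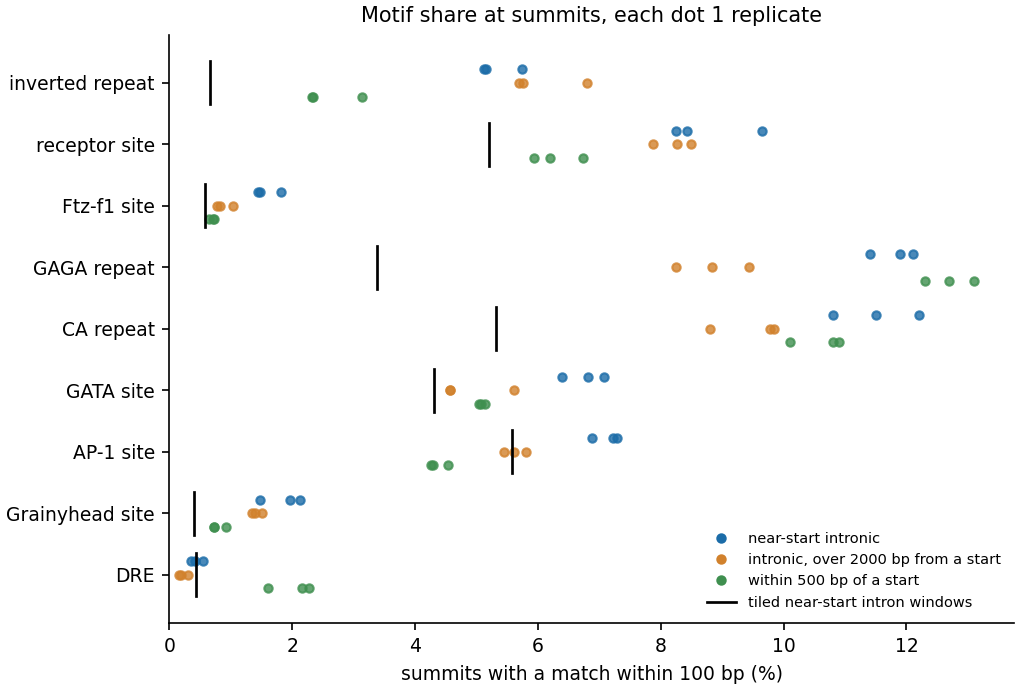
Share of summits with a motif match within 100 bp (horizontal axis, percent) for 9 motifs (vertical axis); each dot is 1 replicate and the black line the share in tiled near-start intron windows. The inverted repeat separates both intronic classes from promoter summits, and DRE shows the opposite order.

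The members were spread over 1000 protein-coding genes, or 7.17% of 13945. Long genes held one more often: among the 1013 genes of at least 20000 bp, 31.9% held a member. The set held 1 member in 640 genes, 2 in 234, 3 or more in 126 and 5 or more in 22. A gene held a member when the summit lay in its body, whether or not the nearest start was its own. The nearest start belonged to another gene for the strongest member in Hr4, skd, kkv, InR and wit, among others.

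EcR and Eip75B, of the ecdysone cascade, held the most members. EcR held 13, in 9 regions and near 9 distinct starts, out of 43 summits in its body, and all 13 had a strong summit in every replicate. Besides its own starts, these were nearest to the nested gene CG14589, to a noncoding RNA and to tRNA genes inside EcR. Eip75B held 12 of its 81 summits as members, in 10 regions and near 9 starts, and 11 of them recurred in all replicates. Their ranks ran from 18 to 5835. Tlk followed with 10, then shn, a zinc finger cofactor of Dpp signalling, with 9, and br, an early ecdysone gene of zinc finger factors, with 8 that it shares with the overlapping gene Mur2B. The gene prage held 7, and vri, mam, E2f1 and Eip78C held 6 each. Counted by region the order is closer, with 9 for Tlk, 5 for shn, 4 for br and 4 for prage, so Tlk equals EcR. Recurrence in all 3 replicates was seen for 7 of the 10 members in Tlk, 3 of the 9 in shn, 3 of the 8 in br and 3 of the 7 in prage.

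Of 28 ecdysone response genes in a list chosen with earlier results of these data known, 16 held a member (57.1%), and together they held 69. The median length of the listed genes was 22353 bp, against 2166 bp for all protein-coding genes, so the 31.9% of long genes is the nearer background. Among the nuclear receptors and other early and early-late regulators, the strongest member ranked 174 in Hr4, 468 in Eip74EF, an ETS factor, 693 in br, 1593 in Eip78C and 4102 in Hr3. In Blimp-1 it ranked 167 and in Eip93F, a factor of the adult programme, 534. The member in vri, a bZIP repressor that also acts in the clock, ranked 263 with replicate ranks of 310, 299 and 225. Those in crol and ImpL2, the latter an insulin-binding secreted protein, ranked 2643 and 984. All of these genes had a strong summit in 3 replicates. Members of low rank were less regular: that in Hr39 ranked 5803 and recurred in 2 replicates, and those in Eip63E and Eip63F-1 ranked 8496 and 8789 and recurred in 1.

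Receptor cofactors were a smaller group, with a member in 6 of 21 genes, or 28.6%. Their median length was 8331 bp, and the share was 7.17% of all protein-coding genes and 31.9% of the long ones. The strongest was in skd, a subunit of the Mediator kinase module, at rank 186 with replicate ranks of 246, 245 and 149. Sin3A, a corepressor, had one at rank 1704, and tai, the EcR coactivator taiman, at rank 1722 near a tRNA gene. The member in Smr, the corepressor SMRTER, ranked 8036 and recurred in 1 replicate.

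Signalling pathways were represented through ligands, receptors and effectors. In the Dpp and activin list 8 of 18 genes held a member. They included the ligand gene daw (rank 405), the repressor Dad (1367) and the receptors babo (2156), wit (4139) and put (4316). In the EGF receptor list it was 8 of 20, with the ligand gene spi at rank 352, the kinase gene Raf at 458, the inhibitor gene sty at 2678 and the receptor gene Egfr at 3854; replicate 1 had no summit within 100 bp of the Egfr member. In the Wnt and Hedgehog list 8 of 22 held one, led by the receptor gene fz2 at rank 251. The Notch list had 5 of 20, led by the coactivator gene mam at 579, the JNK and AP-1 list 5 of 19, led by kay, which encodes Fos, at 1590, and the Hippo list 5 of 19, led by kibra at 3072. In the insulin and growth list it was 6 of 22, with Akt at 657 and InR at 661. These lists had median gene lengths between 4277 and 14729 bp, and the background share was 7.17% of all protein-coding genes and 31.9% of those of at least 20000 bp.

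Genes of cell structure and metabolism also held members. It was 10 of 21 for actin and cell shape, where shg, the E-cadherin gene, had one at rank 1061 and cno at 1114. It was 8 of 17 for lipid storage and transport, where bmm had one at rank 158 and Lpin, a phosphatidate phosphatase gene, at 343. In the cuticle and tanning list it was 5 of 19, with the chitin synthase gene kkv at rank 192. The clock list had 3 of 10, and neuronal remodelling 7 of 18, with the growth regulator brat at rank 550, the RNA-binding protein gene Syp at 898 and Mical, an actin-severing enzyme needed for dendrite pruning, at 1231. Median gene lengths were 13403 bp for actin, 11580 for lipid, 5228 for cuticle, 12433 for the clock and 43642 for remodelling. A member was held by 7.17% of all protein-coding genes and by 31.9% of those of at least 20000 bp, which is near the 38.9% of the remodelling list.

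The shares of genes with a member were lowest in the lists for neurons, autophagy, muscle and cell death. In that order they were 10%, 10%, 15% and 18.8%, all above the 7.17% of all protein-coding genes. Of the genes of at least 20000 bp, 31.9% held a member. The neuron list had 2 of 20 genes with a member at a median length of 24108 bp, which is longer than that of the ecdysone list, and muscle 3 of 20 at 10230 bp. The cell death and autophagy genes are the shortest of the lists, with median lengths of 2590 and 3404 bp, and give no like comparison. For cell death it was 3 of 16: the caspase gene Dronc at rank 805, the inhibitor gene Diap1 with 5 members and its strongest at rank 920, and Buffy at 4676. For autophagy it was 2 of 20, the initiating kinase gene Atg1 at rank 1990 and Atg17 at 2276. No list was tested against others, since gene length differed between them.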

How the data were processed

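ChIP-seq peak lists of 3 biological replicates were used as deposited, in the dm6 assembly per the labels. Per the notes deposited with the samples, the authors made a list for each replicate from its alignment and a control, a list from the pooled alignments, and the optimal list, which was thresholded on IDR, the irreproducible discovery rate. Each peak carries a signal value against the control, a −log10 q-value and a summit offset, all as deposited by the authors. Which aligner, peak caller and settings were used is not given in the sources used here. The depth of each library is unknown, and counting intervals were not computed. The optimal list's −log10 q-value was 4.55 for every peak and was not used.

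Summits were placed on Ensembl release 115 annotation and the RefSeq sequence of the same assembly (Python 3.11.15, numpy 2.4.6, pandas 2.3.3, matplotlib 3.10.9), leaving transposable elements out of starts and exons. Densities are summits per Mb of intron in the same distance range. Classes were compared within each replicate's 9095 strongest peaks by an exact two-sided paired permutation test over 3 replicates, whose smallest p is 0.25. Motif p-values were adjusted over 28 comparisons by the Benjamini-Hochberg method. Placement and motif search were checked on simulated data. The members, the 14 motifs and the 18 gene lists were chosen with earlier results of these data known. Named genes are those of the 15 strongest members, the 10 genes with the most members, the ecdysone response genes with a member and up to 3 genes of each other list by their strongest member. Sequences with the inverted repeat are those of its 8 strongest members off chromosome arm 2R. The receptor genes babo, wit, put and Egfr, the corepressor gene Smr and the GAGA and summit-centred sequences were chosen after their values were seen. Alternatives changed the peak number, summits per region, starts, distance limits, shared distance, motif window, mismatches and replicates.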

Additional observations from a re-analysis of the deposited data

How the results depend on the processing

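Of the values recomputed under alternatives, 201 kept their direction, or for counts and shares stayed close to the reported value, 13 reversed and 5 moved. The density ratios, the density difference between the sides of the start and the inverted repeat against promoters kept their direction under every alternative run, and the number of ecdysone genes stayed within 1.5 times. The size of the inverted repeat difference from promoters, 2.74, was 0.329 with 0 mismatches and 9.07 with 2. The number of members fell to 772 with the strongest peaks cut to the upper 50% and to 839 when summits had to be over 1000 bp from a start. The percentile difference between near-start and other intronic summits, -0.343, turned to 0.165 with starts of protein-coding genes only, 0.654 over 1000 bp and 1.08 up to 3000 bp. The companion difference, -5.44, turned to 0.849 over 1000 bp and was -1.96 with the strongest 50% of peaks and -3.12 up to 3000 bp. The share of members present in a replicate was 76.9% within 50 bp, 91.1% within 250 bp and 97.2% in the whole lists. The inverted repeat difference between near-start and other intronic summits turned to 0.203 with 0 mismatches. Small motif differences from other intronic summits also turned: AGGTCA to -0.133 over 1000 bp, the Hr3 and Eip75B site to 0.227 in a 200 bp window and the E-box to -0.257 in a 50 bp window. The ETS site turned to 0.0205 with 1 summit per region, 0.0108 with protein-coding starts, 0.137 up to 3000 bp, 0.0894 in a 50 bp window and, leaving out 1 replicate at a time, ranged from -0.0354 to 0.0372. The cause was not tested. The read depth is unknown, and 3 replicates that share a control limit every comparison to an exact p of 0.25 at the least.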

Other observations

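Near-start intronic summits were not evenly spread over the chromosomes. Per Mb of near-start intron there were 143 ± 3.59 on 2R, 139 ± 2.01 on 3R, 130 ± 5.58 on 3L, 123 ± 1.79 on 2L and 120 ± 8.15 on the X (SD, n = 3), and 16.2 ± 8.11 on chromosome 4, which holds 0.123 Mb of such intron and 2 members. The members made up 19.2% of the optimal peaks on the X and between 14.4% and 16.6% on the other large arms.

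The weaker summits that stood about 203 bp to the higher-coordinate side of a stronger one made up 12.1% of near-start, 11.9% of other intronic and 11.8% of promoter summits. Examples are the EcR summits at 6133104, 6133307 and 6133506 on 2R, which share a region. The profile of the inverted repeat has a smaller rise on the lower-coordinate side of summits in all 3 classes.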
